A study of Mus musculus with 6 samples.

Results

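Untreated peritoneal cells of a knock-in mouse line named for LAP were compared with untreated peritoneal cells of wild-type mice, across every probe set of a mouse expression array. The comparison holds 2 of the 6 arrays of the study, and its probe sets were all 12422 that are not array controls. Of these, 8699 gave a signal above a floor of 97.99 on at least 1 of the 2 arrays, and they stand for 6383 named genes. The wild-type array (WT) and the knock-in array (KI) both carry the strain label C57BL/6, and neither had been given a stimulus. The labels call the cells PEC or peritoneal macrophages. They name the knock-in as NF-IL6 KI(LAP) and give no account of which part of the gene was replaced, the age of the mice, how the cells were drawn, or how many mice supplied the RNA of an array. Each side was 1 array, so there is no replicate, no error between animals and no test. All differences below are sizes, and the number of arrays limits their precision. The other 4 arrays were an untreated array of NF-IL6 knockout cells (KO) and an array of each genotype after LPS with interferon-γ, also labelled C57BL/6. The labels give 12 h of stimulation for the knockout and knock-in cells and no time for the wild-type cells.

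NF-IL6 is the older name of C/EBPβ, a basic leucine-zipper transcription factor encoded by the intronless gene Cebpb. Ribosomes start on its mRNA at several AUG codons: the long products, called LAP, carry the activation domain, and the short product, LIP, has the DNA-binding end alone and can oppose LAP. In macrophages the factor is known for its part in inducing acute-phase, cytokine and arginase genes, and in the differentiation of some macrophage populations. A knockout removes the factor, while a knock-in replaces part of the gene; the labels do not state which products the knock-in line makes.

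Intensities are linear signals that the authors made with MAS5, given here after scaling to a common trimmed mean. A difference is the log2 signal of KI minus that of WT after the floor, so 1 is a factor of 2 and a difference that ends at the floor is understated. The deposited median signal was 185 on the WT array and 147 on the KI array, against 131 to 172 on the other 4, and 65.8% and 57.4% of probe sets were above the floor. The median of 19 negative controls was 49.8 on the WT array, 25.6 on the KI array and 17.8 to 34.8 on the others. The 9 spiked-in control signals of KI were 0.790 to 1.30 times those of WT, with a median ratio of 1.0. The ratio of 3′ to 5′ signal was 1.18 and 1.12 for Actb and 1.04 and 0.890 for Gapdh, while the 18S rRNA control read 847 on the WT array, 167 on the KI array and 872 on the untreated KO array. Low signals therefore stood higher on the WT array than on the KI array, and the part of this in the differences below was not tested.

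Of the probe sets used, 759 (8.73%) were at least 1 higher and 935 (10.7%) at least 1 lower in KI. By gene, 594 of 6383 (9.31%) were higher and 687 (10.8%) lower. The median difference over all genes was -0.16. The balance of both directions depended on the scaling: higher probe sets made 44.8% of all those past 1 here, 74.0% with each array centred on its median (which moved the median gene to 0.16), 58.0% after quantile normalization and 71.7% after a loess fit on signal. Large differences leaned the other way from the total, with 88 genes past 2 higher and 49 lower. Among genes whose brighter array reached a signal of 531.8, the 75th percentile, 355 were past 1 higher and 174 lower. With probe sets split by mean signal into 4 groups of equal size, from dim to bright, 7.91%, 24.5%, 7.18% and 3.4% of probe sets were past 1 lower and 2.8%, 12.7%, 10.3% and 9.01% past 1 higher. The lower calls thus lay mostly among dim probe sets. For 259 of the 687 lower genes (37.7%) the KI signal was under the floor, and for 127 of the 594 higher genes (21.4%) the WT signal was. The untreated pair had the widest spread of 4 pairings: the SD of the difference was 0.80, against 0.57 for KI and WT after stimulation, 0.64 for untreated KO and WT, and 0.61 for untreated KO and KI.

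**Figure D1:**
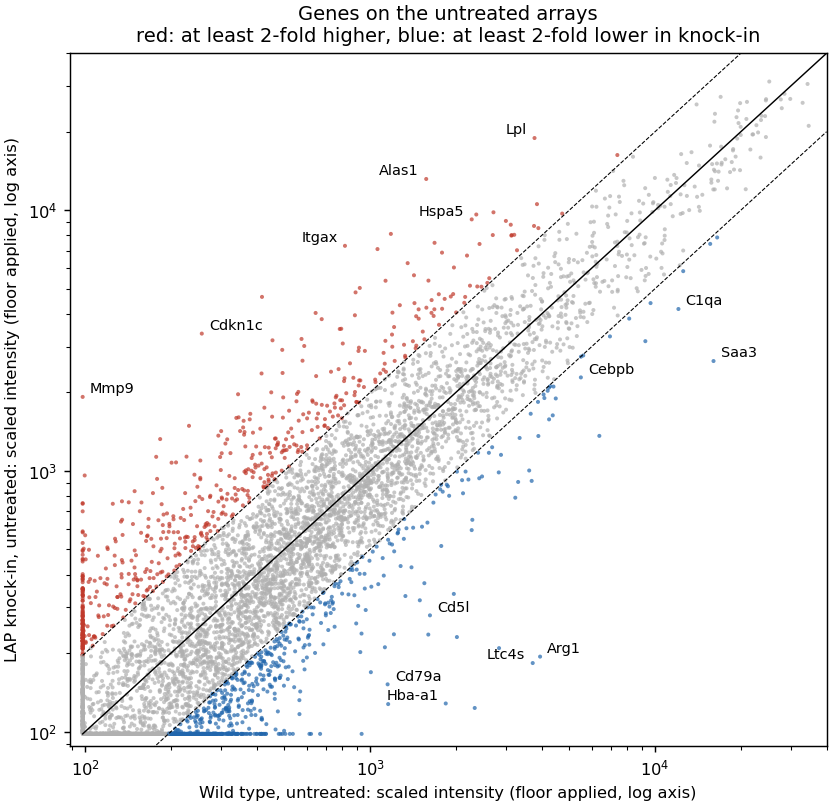
Each point is 1 of 6383 genes, with its scaled intensity on the untreated wild-type array on the horizontal axis and on the untreated knock-in array on the vertical axis, both logarithmic and with signals under 97.99 set to that floor. Red points (594) are at least 2-fold higher and blue points (687) at least 2-fold lower in the knock-in; many blue points lie along the floor, while Arg1, Ltc4s and Saa3 lie far below the diagonal at high wild-type signals.

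Genes read by more than 1 probe set gave the only repeat measurement within the pair, on the same RNA. Over 998 genes with a pair of probe sets in use, the 2 differences were apart by 0.92 (root mean square, 95% interval 0.88 to 0.97) and by 0.55 at the median. Where the brightest probe set was past 1 higher, 103 of 158 other probe sets (65.2%) had the same sign and 48 (30.4%) were also past 1. Where it was past 1 lower, 106 of 134 (79.1%) had the same sign and 18 (13.4%) were past 1. Over all 6383 genes, 2575 differences were above 0 and 3808 below it. Of all probe sets used, 8.73% were past 1 higher and 10.7% past 1 lower, so the 13.4% was close to the share of any probe set. A difference of 1 in a single probe set is thus about as large as the root mean square gap between probe sets of a gene.

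The gene that was altered was read first. Cebpb gave a signal of 5492 in WT, 2284 in KI and 12.7 in KO untreated cells. The knock-in array was thus below wild type by 2.40-fold (log2 difference -1.27) and far above the knockout array, whose signal was under the floor. With each array centred on its median the difference was -0.93, short of 1. The labels do not place the probes against the altered stretch of the gene, so a level cannot be read as a level of functional mRNA. After stimulation the Cebpb signals were 9329 in WT and 5889.9 in KI.

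The other C/EBP family members kept the order of WT over KI for some and not for others. Cebpa, the family member of myeloid differentiation, read 7986 in WT and 9097 in KI, a difference of 0.19. Cebpd, the acute-phase partner, read 992 and 539 (-0.88), and Cebpg, a short dimer partner without an activation domain, 736 and 427 (-0.78). Ddit3, which encodes the stress-induced C/EBP relative CHOP, read 363 and 477 (0.40). Of the 5 members in use, Cebpb was the 1 past 1.

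Genes that the literature names as C/EBPβ targets were split. Of 24 in use, 6 were past 1 lower and 2 higher, with a median of -0.27 against -0.16 over all genes. Of all genes, 10.8% were past 1 lower and 9.31% higher. After stimulation 9 of the 24 were lower and 0 higher, with a median of -0.72. Over all genes 4.84% were then past 1 lower and 1.91% higher, with a median of -0.0053. Saa3, an acute-phase apolipoprotein made by macrophages, gave 16042 in WT, 2639 in KI and 459.8 in KO. The KI signal lay between both other genotypes and was 6.08-fold below WT (-2.60); after stimulation the signals were 27344 in WT, 5879 in KI and 2443 in KO, in the same order. Arg1, the arginase that turns arginine into ornithine and urea, gave 3949 in WT, 194 in KI and 3674 in KO. Here KI alone was low, by 20.4-fold (-4.35), the largest lower difference of all genes bright enough to be named. Chil3, the chitinase-like protein Ym1, gave 2329, 123 and 862 for WT, KI and KO (-4.24), and the neutrophil-attracting chemokine Cxcl1 gave 565, 117 and 288 (-2.28). In these genes KI was below KO as well as below WT. The remaining lower members were Elane and Marco, both dim in WT (375 and 202); Marco was short of -1 under all 3 other scalings. The 2 higher members were Mrc1, the mannose receptor, at 321 in WT and 956 in KI (1.58), and Il1rn, the decoy ligand of the interleukin-1 receptor, at 2619 and 5484 (1.07). Lcn2, a siderophore-binding protein, was 467 and 271 (-0.78). Il6, Ptgs2, Il12b and Il1b were under the floor in both untreated cells, so no difference can be read for them, and Csf3 (203 and 159), Ptges (199.5 and 124) and Nos2 (102 and 85.9) were close to it. Tnf was 206 in WT and 402 in KI, a difference of 0.97.

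**Figure D2:**
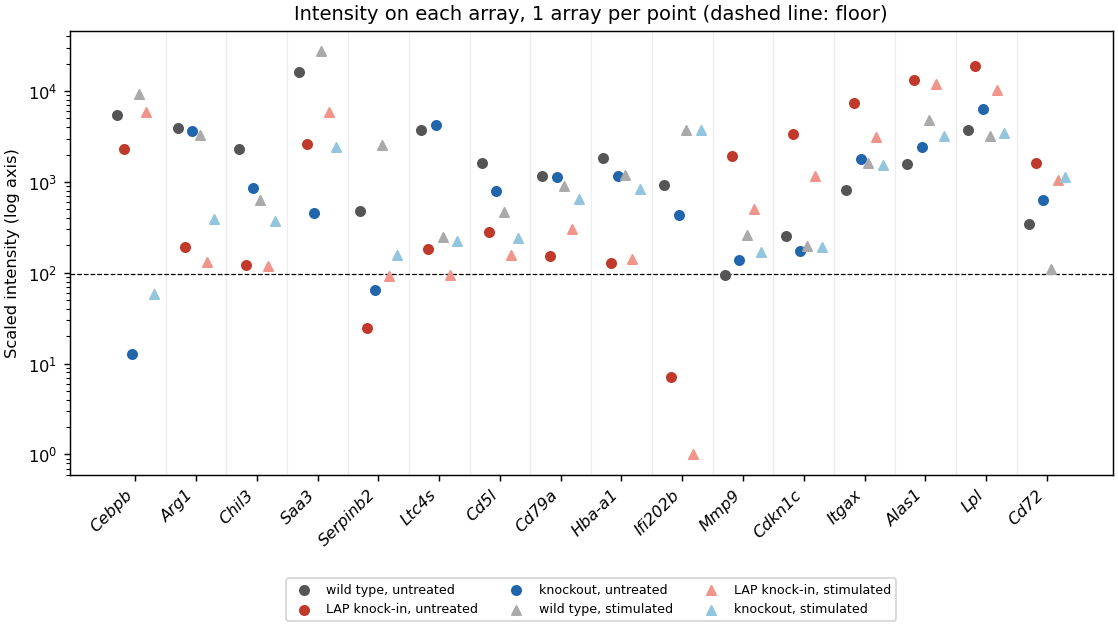
Scaled intensity (logarithmic axis) of 16 genes on the 6 arrays, 1 point per array, circles untreated and triangles after LPS with interferon-γ, with genotype by colour and the floor of 97.99 as a dashed line. The red circles (knock-in, untreated) lie below the grey ones (wild type, untreated) from Cebpb to Ifi202b and above them from Mmp9 to Cd72; Ifi202b is far below the floor on both knock-in arrays.

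Since Saa3 was brightest in wild-type cells in both states and lower in both mutants, its promoter is shown as an example of a C/EBP sequence near a start site. The 250 bases before the RefSeq start site are given 5′ to 3′ in the direction of transcription (GRCm38.p6, chr7:46715677-46715926, minus strand). Capitals mark the match to TTNNGCAA or TTGCNNAA, each searched on both strands, at 99 to 92 bases before the start site.
Saa3: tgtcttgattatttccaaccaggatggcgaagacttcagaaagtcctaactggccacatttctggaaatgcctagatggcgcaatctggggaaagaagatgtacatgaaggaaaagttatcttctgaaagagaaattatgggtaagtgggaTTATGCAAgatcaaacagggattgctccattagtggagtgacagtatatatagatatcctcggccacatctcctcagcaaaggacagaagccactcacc

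The largest lower differences included products of macrophages and of other cells. Ltc4s, leukotriene C4 synthase, gave 3721 in WT, 183 in KI and 4189 in KO (-4.34), so KI stood alone as it did for Arg1. Apoc2, a cofactor of lipoprotein lipase, gave 1600.4, 236 and 1316 (-2.76), and Cd5l, a secreted scavenger protein of tissue macrophages, 1622, 279 and 800.2 (-2.54). All 3 were below both other untreated arrays in KI. Dcn, the matrix proteoglycan decorin, gave 1967 in WT, 337 in KI and 582 in KO (-2.54). The haemoglobin chain Hba-a1 gave 1843, 128 and 1158 (-3.85), and Hbb-b2 gave 613, 50.1 and 268. These are products of red cells, as Cd79a, Cd79b and Igkv6-23 (2835 in WT and 209 in KI) are of B cells. In a bulk preparation fewer cells of a type and less RNA per cell cannot be told apart.

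Ifi202b, a member of the interferon-inducible HIN-200 family whose expression is known to differ between inbred strains, read 934 in WT, 7.10 in KI and 432 in KO untreated cells. After stimulation it read 3719 in WT, 1.0 in KI and 3726 in KO. It was thus at least 9.53-fold and at least 37.9-fold lower in KI, near zero on both KI arrays and high on all 4 others. All arrays carry the label C57BL/6. Whether the lines differ in genetic background, and which of them would match that label, was not tested.

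The largest higher difference was in Mmp9, the secreted gelatinase B, with 95.3 in WT, 1922 in KI and 138 in KO; KI was at least 19.6-fold above WT, whose signal was under the floor. Cdkn1c, the cyclin-dependent kinase inhibitor p57, gave 257, 3363 and 172 (3.71). Prkcb, protein kinase C beta, gave 417, 4650.1 and 893 (3.48). In each of these KI was far above WT and KO alike. Itgax, the integrin CD11c, gave 816 in WT, 7301 in KI and 1799 in KO (3.16). Alas1, the first enzyme of haem synthesis, gave 1574, 13175 and 2438 (3.07), and Bach1, a haem-binding repressor, 454, 3169 and 1328 (2.80). For these the KO array lay between WT and KI. St3gal5, the ganglioside GM3 synthase, gave 183 and 1325 (2.85), Wfs1, an endoplasmic reticulum membrane protein, 644 and 4035 (2.65), and Nrp1, a co-receptor of semaphorins and VEGF, 676 and 3821 (2.5). Map1s, Mnt, Mfhas1 and Hipk2 were higher by 2.84 to 3.27, from WT signals of 36.7 to 99.6, at the floor or under it. Ccnd1, cyclin D1, went from 135 in WT to 764 in KI (2.51). A regulator of entry into the cell cycle and an inhibitor of it were thus both high in KI.

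Genes of protein folding in the endoplasmic reticulum leaned higher in KI. Of 22 in use, 8 were past 1 higher and 0 lower, with a median of 0.80 against -0.16 over all genes, and over the other settings 6 to 11 were past 1 higher and 0 lower. The summed signal of the list was 22885 in WT, 40497 in KI and 23987 in KO untreated cells. Hspa5, which encodes the chaperone BiP, gave 2273 in WT, 9221 in KI and 3252 in KO (2.02). Dnajc3, an inhibitor of the kinase PERK and a cochaperone of BiP, gave 135, 649 and 338 (2.27), and Sel1l, an adaptor of ER-associated degradation, 367, 1005 and 569 (1.45). The disulfide isomerase P4hb gave 924, 2223 and 1217 (1.27). In these KI was the highest of the 3 untreated arrays. The 2 other probe sets of Dnajc3 gave -0.30 and -0.57, and the average over its probe sets, 0.35, was short of 1. P4hb was short of 1 in that average too (0.63). Ppp1r15a, the eIF2α phosphatase subunit GADD34, was 102 in WT, 253 in KI and 377 in KO, and the sensor Atf6 98.8, 244 and 239, so that for both the KO array was above KI or close to it. The other members past 1 were the isomerase Pdia3 (1789 and 4187) and the chaperone Hsp90b1 (2241 and 5135). The transcription factors of the response did not share a direction: Xbp1 was 0.91, Ddit3 0.40 and Atf4 -0.61. After stimulation 1 of the 22 genes was past 1 higher, Ddit3 at 1.28, with a list median of 0.06. Against untreated KO cells, 4 were past 1 higher in KI and 0 lower, with a median of 0.77. Over all 6383 genes 204 were higher and 379 lower in that comparison, which uses the same KI array, with a median of -0.025.

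Of the 20 list members with a promoter in the RefSeq table, 6 (30.0%) held the ER stress element, CCAAT and CCACG parted by 9 bases on either strand, within 250 bases before to 50 after the start site. Those were Canx, Creld2, Dnajc3, Hsp90b1, Hspa5 and Pdia6; it was held by 0.119% of all promoters in that set, and among the genes used 10 of 5140 (0.195%). This element was looked for after the values were seen, and Hsp90b1, Xbp1 and Atf4 were named after their values were seen. The 3 promoters of members past 1 higher, Dnajc3 by its brightest probe set alone, are shown because the element is rare elsewhere; each is the 250 bases before the start site on GRCm38.p6, 5′ to 3′ in the direction of transcription, with every element in capitals. Hspa5 lies at chr2:34771840-34772089 (plus strand), Dnajc3 at chr14:118937682-118937931 (plus) and Hsp90b1 at chr10:86705445-86705694 (minus).
Hspa5: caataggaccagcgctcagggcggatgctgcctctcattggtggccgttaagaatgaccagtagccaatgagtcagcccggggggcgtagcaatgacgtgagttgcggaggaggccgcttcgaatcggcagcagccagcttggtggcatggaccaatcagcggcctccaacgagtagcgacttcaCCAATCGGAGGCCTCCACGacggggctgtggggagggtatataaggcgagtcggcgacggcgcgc
Dnajc3: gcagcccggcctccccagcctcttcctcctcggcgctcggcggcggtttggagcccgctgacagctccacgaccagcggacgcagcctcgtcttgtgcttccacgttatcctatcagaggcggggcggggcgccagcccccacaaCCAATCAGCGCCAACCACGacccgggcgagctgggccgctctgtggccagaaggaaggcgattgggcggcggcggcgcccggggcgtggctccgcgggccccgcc
Hsp90b1: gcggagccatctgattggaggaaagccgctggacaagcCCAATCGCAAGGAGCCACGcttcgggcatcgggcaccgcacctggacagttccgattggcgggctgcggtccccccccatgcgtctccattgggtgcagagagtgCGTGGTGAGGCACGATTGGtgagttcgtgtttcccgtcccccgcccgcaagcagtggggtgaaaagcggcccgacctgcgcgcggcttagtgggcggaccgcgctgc
The element ends 47 bases before the start in Hspa5 and 87 before it in Dnajc3, and Hsp90b1 holds 2, the second on the other strand. Canx, Creld2 and Pdia6 hold it too and were not past 1, so the match alone did not mark the members that were higher.

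Cholesterol synthesis gave a like picture with fewer genes. Of 15 genes in use, 6 were past 1 higher and 0 lower, with a median of 0.41, and over the other settings 4 to 7 were higher and 0 to 1 lower. Sqle, squalene epoxidase, gave 647 in WT, 2310.3 in KI and 776 in KO (1.84), and Idi1, isopentenyl diphosphate isomerase, 445, 1173 and 439 (1.40). Fdps, farnesyl diphosphate synthase, gave 1219.8, 2642 and 1134 (1.11). In all 3 the KO array was close to WT and KI stood above both. A second probe set of Fdps gave 1.08, and the average over all its probe sets, which counts those under the floor on both arrays as 0, was 0.55. Dhcr7, the last reductase of the pathway, was 103 in WT, 375 in KI and 206 in KO. Hmgcs1, which makes HMG-CoA, was 1044, 2191 and 1691, so for Dhcr7 and Hmgcs1 the KO array lay between WT and KI. Cyp51, lanosterol demethylase, was 187, 375 and 136, with KI just at the 2-fold line. After stimulation no gene of the list was past 1 in either direction, and the median was 0.00. Against untreated KO cells 4 were past 1 higher and 0 lower on the same KI array, beside 204 and 379 of all 6383 genes. The sterol element TCACNCCAC, searched on both strands and also chosen after values were seen, lay in 1 of 12 of these promoters (Hmgcs1) and in 1.24% of all promoters.

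**Figure D3:**
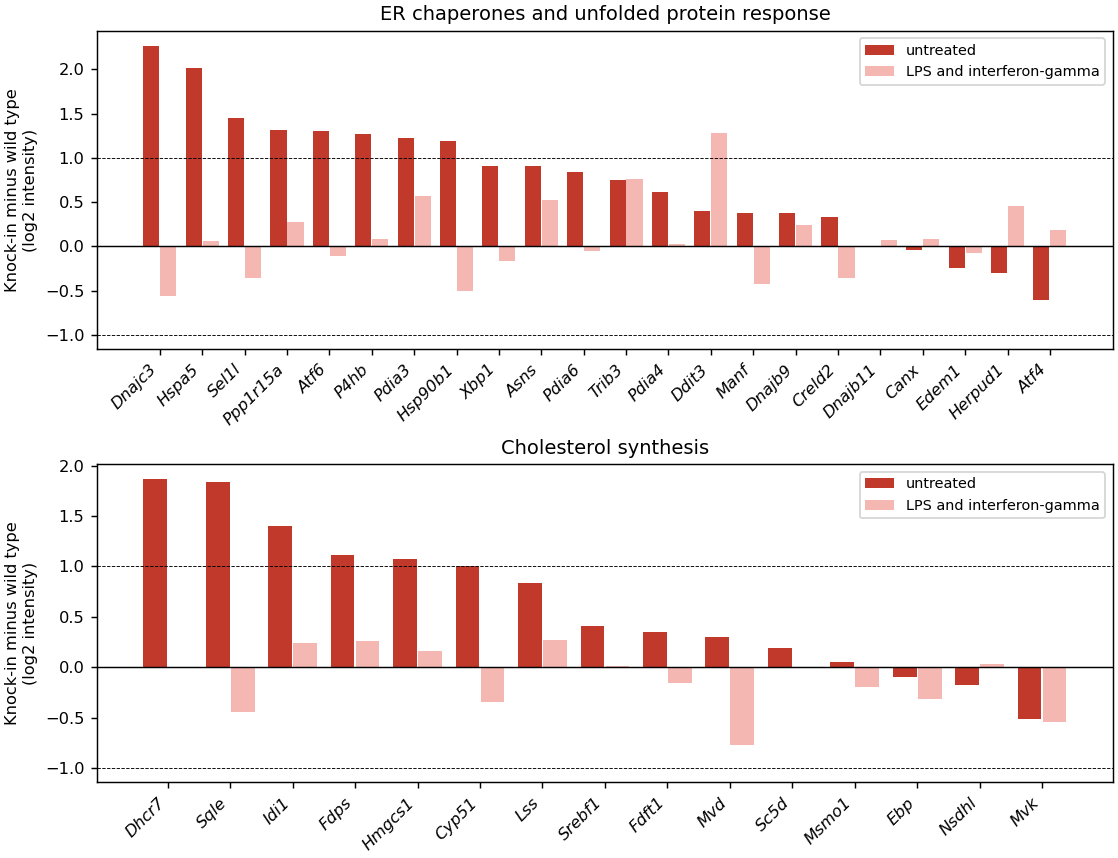
Bars give the log2 difference of knock-in minus wild type for each gene in use of the list of endoplasmic reticulum chaperones and the unfolded protein response (upper panel, 22 genes) and of cholesterol synthesis (lower panel, 15 genes), untreated in dark red and after LPS with interferon-γ in light red; dashed lines mark 1 and -1. Untreated bars pass 1 in 8 and 6 genes, and stimulated bars in 1 (Ddit3) and 0.

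Lipid handling was mixed, with 7 of 29 genes past 1 higher, 3 lower and a median of -0.04. Lpl, the lipoprotein lipase, gave 3776 in WT, 18918 in KI and 6421 in KO (2.32), and a further probe set of the gene gave 1.11. Scd2, a stearoyl-CoA desaturase, gave 379.8, 1656 and 596 (2.12), Fasn, the fatty acid synthase, 184, 492 and 203 (1.42), and Lrp1, a lipoprotein receptor, 1969, 6029 and 3328 (1.61). The other higher members were Mgll, a monoacylglycerol lipase, the fatty acid receptor Cd36 and the cholesterol exporter Npc1. The lower ones were the apolipoproteins Apoc2 and Apoc1 and the fatty acid carrier Fabp5, which read 8116 in WT, 3839 in KI and 3867 in KO.

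Among 36 genes of the actin cytoskeleton and motility, 7 were past 1 higher and 4 lower, with a median of 0.27. Myh9, the heavy chain of non-muscle myosin IIA, gave 1183 in WT, 8112 in KI and 4171 in KO (2.78), and its second probe set gave a difference of 2.31. Actn1, alpha-actinin, gave 1061, 7094 and 2679 (2.74), and Vcl, vinculin, which links integrins to actin, 378, 1577 and 1035 (2.06). In these genes of focal adhesions and contraction KI was highest and KO lay between. Marcks, a membrane-bound actin regulator, was 358 in WT and 1468 in KI, and Actn4 959 and 2886. The lower members, Cttn, Vim, Flna and Cnn3, were dim; Cttn, cortactin, was the brightest of them with 482 in WT, 161 in KI and 70.0 in KO. With the floor at the 60th percentile none of the 4 was past 1. Of 21 integrins and adhesion genes, 5 were higher and 2 lower. Itgb2, the beta chain of the leukocyte integrins, gave 7374 in WT, 16279 in KI and 10892 in KO (1.14), and Itgam, the alpha chain CD11b, 474, 1263 and 1563 (1.41). Itga6 was 17.4 and 277, dim on both arrays. For Itgam the KO array was above KI.

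Complement genes leaned lower. Of 13 in use 0 were past 1 higher and 4 lower, with a median of -0.81, and over the other settings 2 to 4 were lower. C1qa, a chain of the C1q recognition molecule that macrophages secrete, gave 12079.8 in WT, 4179 in KI and 10003 in KO (-1.53). C1qb gave 15617, 7427 and 15977 (-1.07), C1qc gave 16521, 7860.3 and 14376 (-1.07), and Cfp, properdin, gave 4247, 1576 and 4729.7 (-1.43). All 4 were bright on every untreated array, and in each KI was below WT and KO, which were close to each other; with arrays centred on their medians or quantile-normalized, C1qb and C1qc were short of -1. After stimulation the differences were 0.42, 0.28, 0.39 and 0.50, so KI was then above WT. Of 5 Fc receptor genes 2 were lower and 0 higher: Fcgr2b, the inhibitory receptor, at 2611 in WT and 1173 in KI (-1.15), and Fcgrt, the neonatal Fc receptor, at 326 and 53.0.

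Of 16 chemokines 5 were past 1 lower and 1 higher, with a median of -0.39. Ccl8, a ligand of monocyte receptors, gave 1212 in WT, 236 in KI and 928 in KO (-2.36). Cxcl2 gave 401, 68.0 and 459.7, with KI under the floor, and Ccl6 gave 2681, 1233 and 2889.6 (-1.12). As with Cxcl1, the KO array was nearer to WT than KI was. Cxcl13, which attracts B cells, read 257 in WT and 11.9 in KI, and was under the floor in both mutants. Cxcl14 was the higher 1, at 452 and 1128. Among 26 chemokine and cytokine receptors 5 were higher and 5 lower. The GM-CSF receptor chain Csf2ra gave 1431 in WT, 4402 in KI and 2587 in KO (1.62). Its partner chain Csf2rb gave 1137, 2398 and 3699, and Csf2rb2, a related receptor chain, 1644, 4521 and 3412. Il6st, the signalling chain of the interleukin-6 receptor, gave 127, 549 and 441 (2.11), and Il6ra, its ligand-binding chain, 160.0, 331 and 538. All 5 were above WT in KO as well, and for Csf2rb and Il6ra, which were named after their values were seen, KO was above KI. The lower were Ccr2, Cxcr4, Cx3cr1, Ccr3 and the decoy receptor Il1r2. Cxcr4 gave 2415 in WT, 937 in KI and 2331 in KO (-1.37). Of 8 inflammatory cytokines, Csf1, the macrophage growth factor (111 in WT and 473 in KI), Tgfb1 (1742 and 4762) and Il1rn were higher, and Ifnb1 (243 and 9.50) lower.

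Of 29 immediate-early genes 4 (13.8%) were past 1 higher and 3 (10.3%) lower, near the 9.31% and 10.8% of all genes. Gadd45b, a stress-induced growth arrest gene, gave 3690.2 in WT, 915 in KI and 1694 in KO (-2.01), Ier3 gave 1330.1, 331 and 875 (-2.01) and Ier2 gave 1589, 633 and 1456 (-1.33). The zinc-finger factor Egr2 went the other way, with 1956, 4768 and 2743 (1.29). Hk2, hexokinase 2, was 208 in WT, 1078 in KI and 766 in KO (2.37), and the glucose transporter Slc2a1 396, 1030.4 and 807 (1.38); they were the 2 higher of 19 glycolysis genes, with 0 lower and a list median of 0.41. Both were above WT in KO as well.

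The label of peritoneal macrophages was set against markers. Adgre1, which encodes F4/80, read 2259.9 in WT and 2031 in KI, Cd68 19427 and 18825, and Lyz2, lysozyme, 19989 and 19431. These 3 were bright and within 1.11-fold between the arrays. Csf1r, the receptor of the macrophage growth factor CSF1, read 6668 in WT and 11082 in KI (0.73), and Cd14, the LPS coreceptor, 6867 and 5109 (-0.43). All 5 were named after their values were seen. Of 20 macrophage markers in use 5 were past 1 lower and 1 higher, with a summed signal of 80590 in WT, 65713 in KI and 62799 in KO. Most of the fall in this sum was Saa3 alone, at 16042 in WT, 2639 in KI and 459.8 in KO. The lower ones, beside Saa3 and Cd5l, were Fcna, ficolin A (1397 in WT, 427 in KI and 1353 in KO), Serpinb2, an inhibitor of plasminogen activators (478, 24.8 and 64.5), and Marco, a scavenger receptor, all genes of resident peritoneal or other tissue macrophages. The higher 1 was Itgam. Of 6 monocyte and small macrophage markers, Plac8 (2017 in WT, 231 in KI and 2109 in KO), Ccr2 (2285, 649 and 5625) and Cx3cr1 (583, 264 and 605) were lower in KI, and Itgax and Irf4 (48.0 and 277) higher. The chemokine receptors of monocytes and the integrin Itgax thus went opposite ways within this list.

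B cell markers leaned lower, with 5 of 13 past 1 lower, 1 higher and a median of -0.86. Their summed signal was 11347 in WT, 8524 in KI and 11376 in KO. Cd79a and Cd79b, the signalling chains of the B cell receptor, read 1152 and 1157 in WT, 152 and 128 in KI and 1129 and 890.1 in KO. Ms4a1, which encodes CD20, read 729.9, 319 and 795, and the kinase Blk 464, 159 and 365. All 4 were lower in KI than in WT and KO. Ighm read 3232 in WT and 789 in KI by its brightest probe set; the annotation gives this name to 8 probe sets, the others ran from 0.09 to -3.40, and immunoglobulin probe sets can share transcripts, so its size is uncertain. Cd72, a lectin-like receptor of B cells also found on macrophages, went the other way, with 346 in WT, 1605 in KI and 626 in KO (2.22). Erythroid markers had 1 of 3 past 1 lower (Hba-a1) and 0 higher, with a sum of 2898 in WT, 1008 in KI and 2088 in KO. Among 9 T and NK cell markers 1 was lower (Cd2), among 6 of mast cells and basophils 1 (Cpa3), among 12 of neutrophils 2 (Mmp8 and Elane) with Mmp9 higher, and among 21 mesothelial, fibroblast and matrix markers 2 were lower and 2 higher. Summed signals of the T and NK cell list were 2372 in WT and 1714 in KI, and of the mast cell and basophil list 3103 and 2209.8. On both untreated arrays 3 of 16 B cell markers with a probe set were under the floor, 4 of 7 erythroid, 11 of 20 T and NK cell and 7 of 13 mast cell and basophil markers. The part of other cell types in the gene groups above was not tested.

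**Figure D4:**
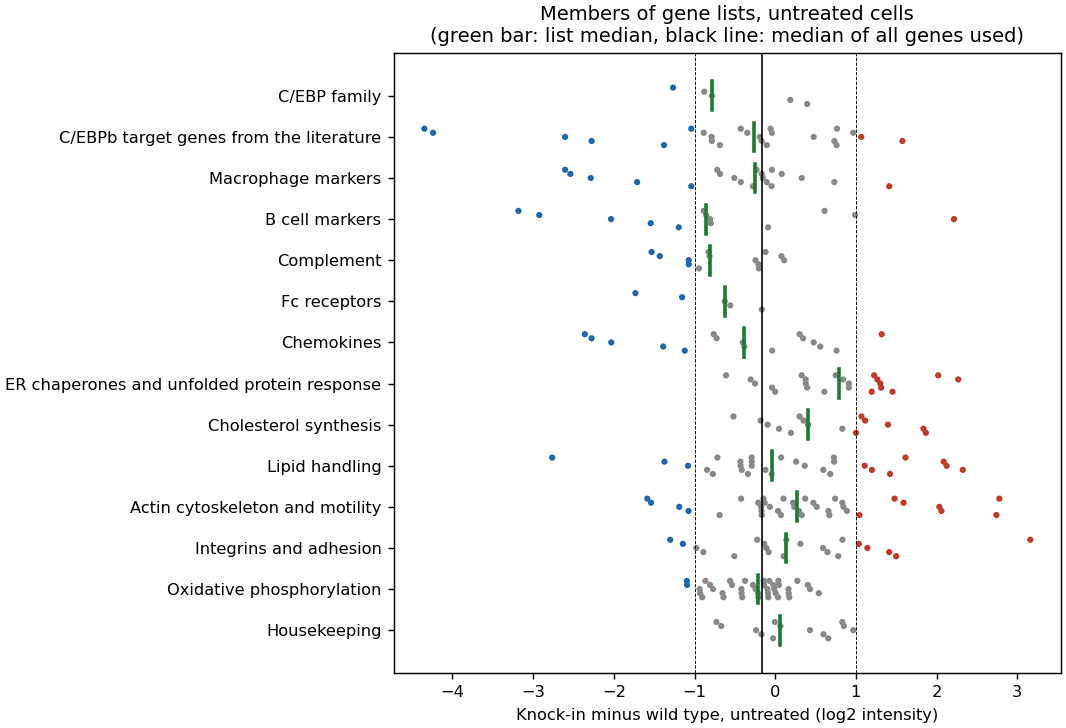
Each point is a gene of the list named at the left, at its log2 difference of knock-in minus wild type in untreated cells; red and blue points are past 1 and -1 (dashed lines), green bars are list medians and the black line is the median of all 6383 genes (-0.16). The chaperone (median 0.80) and cholesterol (0.41) lists lie to the right of the line and the complement (-0.81) and B cell (-0.86) lists to its left.

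Lists of basic functions held few genes past 1. None of 13 housekeeping genes was past 1 in either direction (median 0.06), and 0 of 39 oxidative phosphorylation genes were higher and 2 lower (median -0.21). Of 31 proteasome genes 1 was higher, of 21 ribosomal proteins 1, and of 42 lysosomal genes 2, with 0 lower in each; their medians were -0.14, -0.26 and 0.02. Of 33 cell cycle genes 6 were higher, among them the replication factor Mcm5 (463 in WT, 1330.0 in KI and 824 in KO), and 2 lower, among them the proliferation marker Mki67 (292, 115 and 196). With a background of 9.31% higher and 10.8% lower over all genes, these counts were near it or below it, except that of the cell cycle list at 18.2% higher. Over the other settings 1 to 7 cell cycle genes were past 1 higher, the fewest with the floor at the 60th percentile. In untreated KO cells the list was above WT too, with a median of 0.68. Against KO, 0 of its genes were past 1 higher in KI and 11 lower, beside 204 and 379 of all 6383 genes.

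The stimulated pair of the same genotypes shares no array with the untreated pair, and served as another measurement in another state. Low signals stood higher on its WT array too. The deposited median was 164 in WT and 131 in KI, and 61.2% and 55.7% of probe sets were above the floor. The median of negative controls was 24.0 and 17.8. The part of this offset in differences seen in both states was not tested. Of all probe sets used in the untreated pair, 1.9% were past 1 higher and 5.05% past 1 lower after stimulation, and of all genes 1.91% and 4.84%. Of the 759 probe sets higher in untreated KI cells, 70 (9.22%, 95% Wilson interval 7.36 to 11.5%, counting error only) were past 1 higher after stimulation too and 19 (2.5%) past 1 lower. Of the 935 lower ones, 171 (18.3%, 15.9 to 20.9%) were past 1 lower again and 4 (0.428%) past 1 higher. The sign was kept in 70.0% and 72.7%, and by gene the median difference was 1.37 untreated and 0.30 stimulated for the higher set, and -1.27 and -0.41 for the lower. Shares past 1 the same way were thus above those of all probe sets, while most untreated differences were smaller after stimulation.

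**Figure D5:**
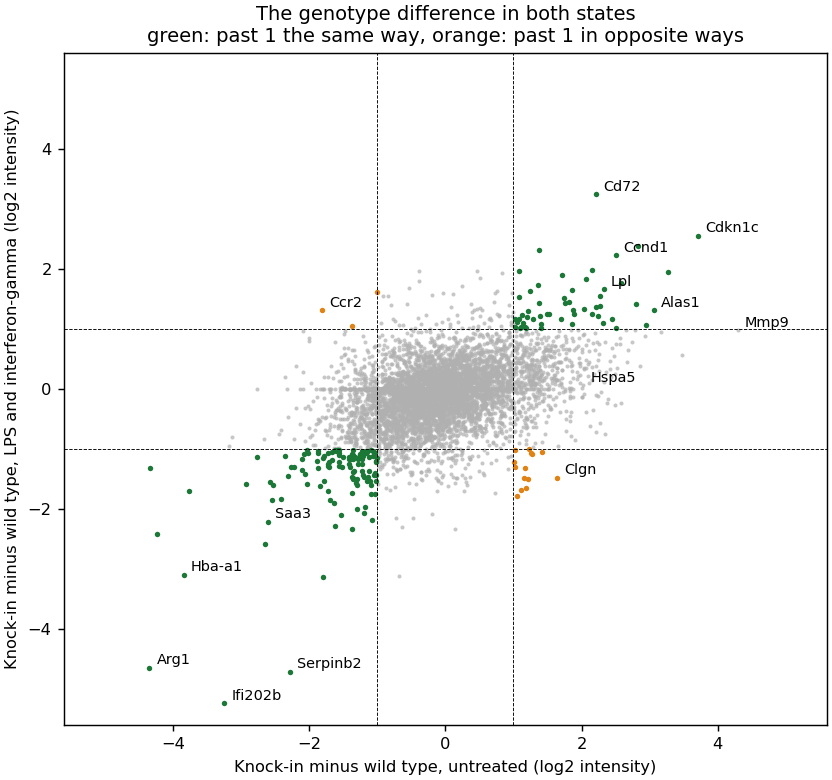
Each point is 1 of 6383 genes, with the log2 difference of knock-in minus wild type in untreated cells on the horizontal axis and after LPS with interferon-γ on the vertical axis; dashed lines mark 1 and -1. Green points are past 1 the same way in both states (54 higher and 118 lower) and orange points past 1 in opposite ways (14 and 3).

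By gene, 54 were past 1 higher and 118 past 1 lower in both states. Cdkn1c read 195 in WT and 1150.3 in KI after stimulation (2.56), Cd72 109.5 and 1041 (3.25), and Ccnd1 362 and 1698 (2.23). Lpl read 3238 and 10232 (1.66), Psat1, an enzyme of serine synthesis, 1367 and 4027 (1.56), and Slc9a3r1, a scaffold protein of the cell cortex, 682 and 2699 (1.98). Cdkn1c, Lpl, Psat1 and Slc9a3r1 were above both other genotypes in either state, while for Cd72 and Ccnd1 the stimulated KO array, at 1126 and 1541, was close to KI. Arg1 was low in KI in both states, with 3320.1 in WT and 132 in KI after stimulation (-4.65), where the KO signal was 388. Serpinb2 read 2579 and 93.3, at least 26.3-fold lower, Ghrl, which encodes ghrelin, 866 and 61.9, at least 8.83-fold lower, and Hba-a1 1207 and 141 (-3.10). Orm3, an acute-phase glycoprotein, was 383 in WT and 116 in KI untreated and 328 and 101 stimulated. Mmp9 and Itgax, at 0.98 and 0.95 after stimulation, were just under 1.

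C/EBP matches were counted in the 300-base promoter windows of RefSeq. Among all 32851 promoters 10.8% held TTNNGCAA or TTGCNNAA on either strand, and among the genes used 553 of 5140 (10.8%). Of genes past 1 higher in untreated KI cells 47 of 487 (9.65%) held a match and of those past 1 lower 56 of 514 (10.9%), so neither direction stood apart. The strict palindrome TTGCGCAA, which both patterns contain, was in 0.183% of all promoters. Of the genes lower in both states 18 of 82 (22%) held a match, and of those higher in both 3 of 41 (7.32%); this split was added after the values were seen. The promoters of the genes lower in both states had a median GC content of 56.0%, against 60.3% over all genes used, and its part in the share was not tested. The 18 held Saa3, Serpinb2, Orm3, Clec4e, Cxcl13, Slpi and Mgst1. These were also below WT in untreated KO cells, while Hal, another of the 18, was not. The genes named here are a part of the 18. With the floor at the 60th percentile the untreated differences of Serpinb2 (-0.93), Orm3 (-0.61), Cxcl13 (-0.03) and Clec4e (0.0) were short of -1. All 18 were chosen as low against the same WT array, so a KO signal below it is no separate support. Clec4e, the lectin receptor Mincle, read 221 in WT, 98.0 in KI and 61.9 in KO untreated, and 1886, 484 and 191 stimulated. Its untreated KI signal was at the floor. The untreated difference of -1.18 was also short of -1 with median centring (-0.84), quantile normalization (-0.79), loess (-0.69) and the pseudocount (-0.87). Slpi, a secreted inhibitor of leukocyte proteases, read 2119, 821 and 319.9 untreated and 4592, 906 and 328 stimulated. In both, the KI signal lay between KO and WT after stimulation, as for Saa3. They are shown, with names chosen after values were seen, as the 250 bases before the start site on GRCm38.p6 with the match in capitals: Clec4e at chr6:123289872-123290121 and Slpi at chr2:164356508-164356757, both on the minus strand.
Clec4e: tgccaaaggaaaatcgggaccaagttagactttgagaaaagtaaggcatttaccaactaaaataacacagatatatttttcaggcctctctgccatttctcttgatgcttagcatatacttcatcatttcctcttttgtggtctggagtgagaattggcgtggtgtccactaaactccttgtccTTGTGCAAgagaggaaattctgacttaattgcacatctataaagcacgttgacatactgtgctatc
Slpi: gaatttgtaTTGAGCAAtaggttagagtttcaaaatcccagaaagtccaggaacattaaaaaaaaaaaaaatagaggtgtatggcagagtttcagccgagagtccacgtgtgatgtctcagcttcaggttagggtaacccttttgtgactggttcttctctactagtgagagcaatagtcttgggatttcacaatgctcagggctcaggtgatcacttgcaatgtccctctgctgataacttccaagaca
The match lies 66 to 59 bases before the start site of Clec4e and 241 to 234 before that of Slpi. A match is a run of letters and does not show that the factor binds there.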

How the data were processed

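RNA was extracted with Trizol and biotinylated cRNA made from 6 µg of total RNA, per the labels' protocols. The deposited values are linear signal intensities of 12488 probe sets on 6 arrays, which the authors computed with MAS5 according to the submitters' processing notes. No version or scaling target is given in the sources used here. Each array's trimmed mean (2% off each end) was brought to their common mean, signals under the 40th percentile over all arrays were raised to it, and log2 was taken. The 66 control probe sets were left out. Of 12422 probe sets the platform annotation gives 10833 1 symbol, 396 several and 1193 none, and only those with 1 were named; 10817 matched a RefSeq gene. A gene is represented by its brightest probe set over the 6 arrays. With 1 array a side no test was made, and a gene is counted from a log2 difference of 1.

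The comparison, lists and members were chosen with earlier results of these data known. Named are the C/EBP family and 11 known targets, the 25 largest differences each way among genes reaching the 75th percentile, up to 6 members of each list, marker genes past 1, genes whose probe sets disagree, the 12 largest each way in both states and the 6 largest opposite ones. A few other genes, named after their values were seen, complete small counts or are general markers. Promoters (250 bases before to 50 after the start) are from the RefSeq table of GRCm38.p6. The steps were tested on simulated data, made of copies of the WT array with little noise and large changes planted in bright probe sets. That test does not cover dim signals or the spread between probe sets of a gene. Python 3.11.15, pandas 2.3.3, scipy 1.17.1 and statsmodels 0.14.6 were used.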

Additional observations from a re-analysis of the deposited data

Results flagged for a closer look

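Ccr2, Cxcr4 and Pou2f2 were past 1 lower in untreated KI cells and past 1 higher in stimulated ones; with 1 array in each group these reversals were not tested. Ccr2, the monocyte chemokine receptor, read 2285 in WT and 649 in KI untreated and 267 and 665 stimulated, so the genotype difference was 3.13 higher after stimulation on the log2 scale. The same value was 2.41 for Cxcr4, with 2415 and 937 untreated and 190.3 and 394 stimulated. It was 2.63 for Pou2f2, the B cell transcription factor Oct-2, with 290.3 and 144 untreated and 116 and 354 stimulated. Its untreated difference of -1.01 was short of -1 with median centring (-0.68), quantile normalization (-0.75), loess (-0.58), the floor at the 60th percentile (-0.21) and the pseudocount (-0.81).

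The opposite order, higher in untreated and lower in stimulated KI cells, was seen in 9 genes that the naming rule takes, again not tested. For Dusp6, a phosphatase of the kinase ERK, the genotype difference changed by -2.83 between states, with 301 in WT and 684 in KI untreated and 449 and 144 stimulated. For Clgn, a testis chaperone, it changed by -3.12 (90.7 and 306, then 680.4 and 244), and the probe sets of this gene disagree in sign. It changed by -2.80 for Rag1, -2.71 for Cyp2c39, -2.65 for Tef and -2.50 for Rps29. For Itgam, the alpha chain CD11b, it changed by -2.46 (474 and 1263, then 722 and 349). The changes were -2.35 for Tk1, thymidine kinase, and -2.33 for F3, tissue factor. Several of these untreated differences fell short of 1 under other settings. With the floor at the 60th percentile Rag1, Rps29 and F3 were at 0.0, Tk1 at 0.265, Clgn at 0.28 and Tef at 0.63. Averaged over its probe sets Dusp6 was at 0.59.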

How the results depend on the processing

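No paired analysis was possible because each group has 1 array and the labels number no replicates; for the same reason no array could be left out. The counts of probe sets past 1 (759 higher and 935 lower), then of genes (594 and 687), moved by over 1.5 times as follows. Centring each array on its median gave 1254 and 441 probe sets and 971 and 328 genes. The loess fit gave 410 lower probe sets and 311 lower genes. A floor at the 20th percentile gave 2402 lower probe sets and 1522 lower genes, and at the 60th 452 and 241 probe sets and 369 and 188 genes. Bright probe sets alone gave 434 and 220, and 355 and 174 genes. A size of 1.5-fold gave 1497 and 2314, and 1146 and 1674 genes, and a size of 2 on the log2 scale gave 113 and 65, and 88 and 49 genes. The share of higher and lower probe sets past the size again after stimulation was 18.6% and 14.1% with median centring, 12.6% and 14.1% after quantile normalization, 14.4% and 25.7% with the lower floor, 21.6% and 30.2% at 1.5-fold and 4.42% and 12.3% at a size of 2. For higher ones it was 12.4% with loess and 5.97% with the higher floor, and for lower ones 26.4% among bright probe sets. Probe sets of a gene were apart by 1.27 with the lower floor, 0.67 with the higher, 0.84 with no filter and 0.63 among bright ones. The strict palindrome was in 0.584% of lower and 0.205% of higher genes' promoters. Averaging all probe sets of a gene turned the sign of Clgn to -0.015, Inpp5d to -0.52, Mms19 to -0.011, Smyd5 to 0.023 and Tcf25 to 0.040. Of 214 named genes past 1, 100 were past 1 under all 8 settings for single genes, and 185, 193, 186 and 161 with median centring, quantile, loess and averaged probe sets. The causes were not tested. For 37.7% of the lower genes the KI signal was under the floor.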

Other observations

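Further gene groups of the untreated pair were not covered above. Of 21 macrophage transcription factors, 3 (14.3%) were past 1 higher and 5 (23.8%) lower, beside 9.31% and 10.8% of all genes. With each array centred on its median 0 were lower. The inhibitor of helix-loop-helix factors Id2 read 12557 in WT, 5837 in KI and 9015 in KO, and was -0.77 with that centring. The retinoid receptor Rxra read 215, 551 and 477, and was 0.60 averaged over its probe sets. Of 15 antimicrobial genes 1 was higher and 3 lower, beside 9.31% and 10.8% of all genes. Over the other settings 1 to 2 were higher and 2 to 4 lower. Slc11a1, a metal transporter of the phagosome, read 3205 in WT, 8046 in KI and 3496 in KO. Acod1, which makes itaconate, read 518, 177 and 309 (-1.55), and was -0.77 averaged over its probe sets. Of 18 type I interferon response genes 2 were higher and 2 lower, with a median of -0.11, and of 12 MHC class II genes 0 were higher and 1 lower. Tapbp, which loads peptides onto MHC class I, read 1788 in WT, 6875 in KI and 3994 in KO by its brightest probe set, a difference of 1.94, and 0.98 averaged over its probe sets.

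For 16 genes, probe sets were past 1 in opposite directions on the same pair of arrays. Among them were the phosphatase Inpp5d, the transcription factor Ikzf1, the kinase Mtor and the chaperone Hspa4, so their single-probe-set differences have no settled direction.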
